A study of Mus musculus with 2084 samples.

Results

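The proteasome subunit genes were followed across the adult mouse neural stem cell lineage, oligodendrocytes and the arms of an ischemia study. The 40 genes were the protein-coding symbols of the RNA count table that consist of Psma, Psmb, Psmc or Psmd and a number, or Psme1 to Psme4, without Psmb8, Psmb9 and Psmb10. The table held 35606 genes, of which 35496 had a symbol and 19431 were protein coding. The Psm pseudogenes, 4 in number, were left out. Psmc3ip, which matches the start of the pattern but encodes a recombination factor and no subunit, was kept apart: its log2 fold change between cycling and quiescent cells was 1.93 (SE 1.02, edgeR adjusted p = 0.192). By role the genes were 8 of the 20S alpha ring, 8 of the 20S beta ring, 6 ATPases of the 19S particle, 11 other 19S subunits, 3 chaperones of 19S assembly (Psmd5, Psmd9 and Psmd10) and 4 activators.

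The proteasome is the protease that degrades most ubiquitin-tagged proteins in the cytosol and nucleus. Its 20S core is a barrel of alpha and beta rings, with the cutting sites on Psmb5, Psmb6 and Psmb7. The 19S particle binds ubiquitin chains, removes them and threads the substrate into the core with a ring of ATPases, while Psme proteins form alternative caps that open the core without ubiquitin. In the neural stem cell niche of the ventricular-subventricular zone (vSVZ), quiescent stem cells are known to store protein in lysosomes and to change their protein turnover when they become active.

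Cells were sorted by flow cytometry and their RNA was read with Smart-seq3, a full-length plate method, as the transcriptome layer of a multi-omic protocol. Each replicate, written here as a letter, pooled the cells of 1 or more mice. The ischemic arms were TiCY-IFN(A/G)R KO cells 2 d after bilateral carotid artery occlusion (letter pJ) and TiCY cells at 2 d (pI) and 21 d (pH). The naive arms were IFN(A/G)R KO (pJ), TiCY (pM), WT with a TCF-Lef reporter (pL) and WT (pA to pF). Tamoxifen at 2 months of age was described for TiCY mice. It switches on eYFP through a Cre in Tlx (Nr2e1)-expressing stem cells, so the label reaches stem cells and their progeny only. WT mice had neither tamoxifen nor surgery. Whether naive TiCY and naive KO mice had tamoxifen was not stated in the labels. Tamoxifen may therefore differ between naive and ischemic arms. KO stands below for both genotypes that lack the interferon receptors; the ischemic KO mice also carried TiCY and the naive KO mice were not labelled so. In WT cells the labelled stages were quiescent stem cells (qNSC1, qNSC2), active stem cells (aNSC), transit-amplifying progenitors (TAP), neuroblasts and oligodendrocytes. Ages of WT and KO mice were not given.

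The RNA table held 2584 cells, of which 1981 matched a labelled cell, with 3771 to 1842234 counts per cell (median 160621). Levels are given as CPM, a gene's counts relative to all counts of the sum. Single genes of the replicated comparisons were scaled with edgeR's TMM factors, while summed levels, markers, levels per length and the ischemic and KO arms used total counts. The 22 WT sums of type and letter showed their own markers: oligodendrocyte markers (6 genes) summed to 56900 to 86150 CPM in oligodendrocytes, and neuroblast markers (7 genes) to 2412 to 10820 CPM in neuroblasts. Microglial markers (5 genes) reached at most 10.9 CPM. WT letters fell into sets that differed in depth. Median cell totals of WT sums were 467883 to 1588358 counts in pA, pB and pE, and 102966 to 169226 in pC and pD. The receptor check of the KO arms used the GLAST-sorted vSVZ cells. Ifngr1 was at 0.749 CPM in KO cells at 2 d and 0.0981 CPM in naive KO cells, against 9.03 CPM in TiCY cells at 2 d and 21.7 CPM in naive TiCY cells. Ifnar1 was at 21.4 and 11.9 CPM in those KO cells, against 84.7 and 48.9 CPM in the TiCY cells. Not every type followed this: naive KO aNSC had Ifnar1 at 98.6 CPM (91 counts in 7 cells), against 31.0 CPM in naive TiCY aNSC, and KO striatal cells labelled neurogenic had 49.2 CPM at 2 d. The deleted exons were not stated in the labels, so residual counts check little.

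Promoters of 6 members are shown because their genes carry the results below: Psmc4, Psmc6, Psmd13 and Psme3 were among the genes higher in cycling cells, Psmb5 had the highest level per length, and Psme1 had high ratios at 2 d in KO cells. Each window is RefSeq sequence of GRCm38.p6 from 250 bases before to 50 bases after the start site on the gene's strand. Capitals mark matches, on either strand, to CGGAAG (the core bound by ETS factors), TGACNNNGC (the antioxidant response core bound by Nrf factors, which are known to induce proteasome genes) or GAAA, any 2 bases and GAAA (the interferon-stimulated response core).
Psmc4 promoter, chr7:28050043-28050342, minus strand: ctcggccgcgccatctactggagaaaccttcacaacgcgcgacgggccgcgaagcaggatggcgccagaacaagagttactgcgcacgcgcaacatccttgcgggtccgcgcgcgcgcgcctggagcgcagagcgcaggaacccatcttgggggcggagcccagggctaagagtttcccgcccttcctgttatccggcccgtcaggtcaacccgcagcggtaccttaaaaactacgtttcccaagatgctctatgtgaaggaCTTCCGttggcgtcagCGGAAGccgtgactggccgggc
Psmc6 promoter, chr14:45329574-45329873, plus strand: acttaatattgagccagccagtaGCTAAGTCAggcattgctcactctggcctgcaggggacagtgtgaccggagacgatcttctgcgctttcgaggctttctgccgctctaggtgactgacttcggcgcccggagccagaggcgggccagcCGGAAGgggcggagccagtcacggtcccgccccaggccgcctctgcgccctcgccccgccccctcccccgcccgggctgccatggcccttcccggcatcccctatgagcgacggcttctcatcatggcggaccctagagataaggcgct
Psmd13 promoter, chr7:140882144-140882443, plus strand: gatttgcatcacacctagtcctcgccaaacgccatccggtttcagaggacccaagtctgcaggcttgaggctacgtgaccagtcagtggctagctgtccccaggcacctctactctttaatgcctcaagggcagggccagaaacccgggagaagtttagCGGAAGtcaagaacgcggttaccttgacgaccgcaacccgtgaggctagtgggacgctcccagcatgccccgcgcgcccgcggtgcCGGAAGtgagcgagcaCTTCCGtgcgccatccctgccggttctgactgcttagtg
Psme3 promoter, chr11:101315963-101316262, plus strand: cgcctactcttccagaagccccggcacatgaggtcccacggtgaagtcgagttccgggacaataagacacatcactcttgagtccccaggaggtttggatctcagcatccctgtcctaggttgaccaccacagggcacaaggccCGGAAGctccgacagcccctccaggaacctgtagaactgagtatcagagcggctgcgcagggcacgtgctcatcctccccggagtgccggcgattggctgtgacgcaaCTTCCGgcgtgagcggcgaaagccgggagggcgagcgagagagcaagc
Psmb5 promoter, chr14:54617946-54618245, minus strand: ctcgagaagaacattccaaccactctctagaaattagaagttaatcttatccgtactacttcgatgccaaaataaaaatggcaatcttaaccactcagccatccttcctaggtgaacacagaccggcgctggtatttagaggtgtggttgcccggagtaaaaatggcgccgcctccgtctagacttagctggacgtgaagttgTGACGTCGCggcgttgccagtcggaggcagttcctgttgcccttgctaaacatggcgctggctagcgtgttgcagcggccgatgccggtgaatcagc
Psme1 promoter, chr14:55578244-55578543, plus strand: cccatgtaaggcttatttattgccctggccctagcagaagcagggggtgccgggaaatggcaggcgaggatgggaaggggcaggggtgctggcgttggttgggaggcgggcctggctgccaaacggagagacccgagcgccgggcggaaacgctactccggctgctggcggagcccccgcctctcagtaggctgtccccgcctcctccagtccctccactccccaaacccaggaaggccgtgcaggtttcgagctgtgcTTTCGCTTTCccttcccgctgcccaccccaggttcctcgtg

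Of the 40 members, 33 had such a window. CGGAAG was present in 20 of 33 members (60.6%) and in 18.8% of 27025 genes with windows. TGACNNNGC was present in 6 of 33 members (18.2%) and in 14.0% of genes, CCAAT in 13 (39.4%) and 41.1%, and the interferon-stimulated core in 4 (12.1%; Psmb3, Psmd4, Psmd9 and Psme1) and 3.99%. Each motif was searched on both strands on its own, and a stretch may match several. Psmd13 held 3 CGGAAG matches, Psmc4 and Psme3 2 each and Psmc6 1. Of the 8 genes with a window among the 9 called in cycling cells below, 5 held CGGAAG, and of the other 25 members with a window, 15 did. These matches describe letters in a window and are not evidence of binding.

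Levels per length were compared as CPM per kb of exon, averaged over the 6 WT types. The beta ring subunit Psmb5, which carries the chymotrypsin-like site, was highest of all members at 285 CPM per kb. The length was that of all annotated exons merged, 899 bases in Psmb5 and 3071 in Psma7, so the ranking rests on the annotation. Without division by length Psma7 was highest at 299.6 CPM, followed by Psmd1 (266.5) and Psmb5 (256.6). In the alpha ring Psma6 was highest at 116 CPM per kb and Psma8, a testis form, lowest at 0.194. Psma8 had a count in 1.87% of used cells and passed the filter of no fit. In the beta ring Psmb11, a thymus form, was lowest at 1.63 CPM per kb, below Psmb7 at 29.0. Psmc5 and Psmc2 bounded the ATPases at 76.7 and 22.9 CPM per kb, and Psmd7 and Psmd8 the other 19S subunits at 105.5 and 17.1. Levels of the chaperones lay between 4.85 (Psmd9) and 16.5 (Psmd10) CPM per kb, and those of the activators between 10.7 (Psme3) and 33.2 (Psme2). Reads of 8 members overlapping a gene on the other strand (Psma4, Psma5, Psmb7, Psmc3, Psmd1, Psmd3, Psmd13 and Psme1), and of Psmd1 overlapping Gm21972 on the same strand, may be shared, since the strand setting of the counting was not given.

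As a sum, proteasome RNA was highest in the cycling stages. The 40 genes together made up 3453 ± 1172 CPM in qNSC1 (SD, n = 5), 3632 ± 1182 in qNSC2 (n = 4), 7030 ± 1608 in aNSC (n = 3), 8259 ± 985 in TAP (n = 3), 5028 ± 1695 in neuroblasts (n = 4) and 3882 ± 1208 in oligodendrocytes (n = 3). The aNSC sums were 6023, 6182 and 8884 CPM and the TAP sums 7579, 7810 and 9389 CPM. Each of these 6 lay above the highest quiescent sum, 5369 CPM in qNSC2 of pD. This rests on the scaling: with TMM factors, tried after the data were seen, the lowest cycling sums were 5136 and 5140 CPM (aNSC of pE and pC), below the 6157 and 5875 CPM of qNSC1 and qNSC2 of pD. It also rests on the minimum of 3 cells per sum: of the cycling sums of 2 cells, aNSC of pA (3270 CPM) and pB (3930 CPM) lay within the quiescent range and TAP of pB (6657 CPM) above it. Neuroblasts (3502 to 7017 CPM) overlapped both the quiescent and the cycling range. CPM are shares of a sum's counts, so RNA per cell was not measured.

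By role, ATPases summed to 923 ± 163 CPM in aNSC and 1183 ± 170 CPM in TAP, against 430 ± 74.2 CPM in qNSC1 and 449 ± 207 CPM in qNSC2. Activators summed to 243 ± 59.3 CPM in aNSC and 292 ± 111 CPM in TAP, against 164 ± 30.9 CPM in qNSC1 and 235 ± 59.9 CPM in qNSC2. Chaperones summed to 124 ± 50.0 CPM in aNSC and 134 ± 71.1 CPM in TAP, against 122 ± 34.5 CPM in qNSC1 and 64.7 ± 25.8 CPM in qNSC2. With total counts the ranges of the ATPase sums did not overlap between cycling and quiescent stages, and those of the chaperone sums did. With TMM factors the ATPase sums overlapped too, with a lowest cycling sum of 629.8 CPM and a highest quiescent sum of 766.0 CPM.

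Levels also differed between letters within a type. In qNSC1, Psmb5 stood at 278 CPM in pC and 383 CPM in pD, against 69.9, 51.8 and 98.7 CPM in pA, pB and pE. Psme4, a nuclear cap of the core, went the other way in qNSC1, with 65.8 and 16.9 CPM in pC and pD, against 159.6, 109 and 165 CPM in pA, pB and pE. Cycling sums came only from pC, pD and pE and neuroblast sums from pA to pD, so letter and type were not balanced. Within letters the order of the summed level held: pE had 6182 CPM in aNSC and 7810 in TAP, against 2859 in qNSC1 and 3261 in qNSC2. In pD the cycling values were 8884 and 9389 CPM, against 5141 in qNSC1 and 5369 in qNSC2. In pC they were 6023 and 7579 CPM, against 4196 CPM in qNSC1. This order within pC, pD and pE was the same with TMM factors.

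**Figure D1:**
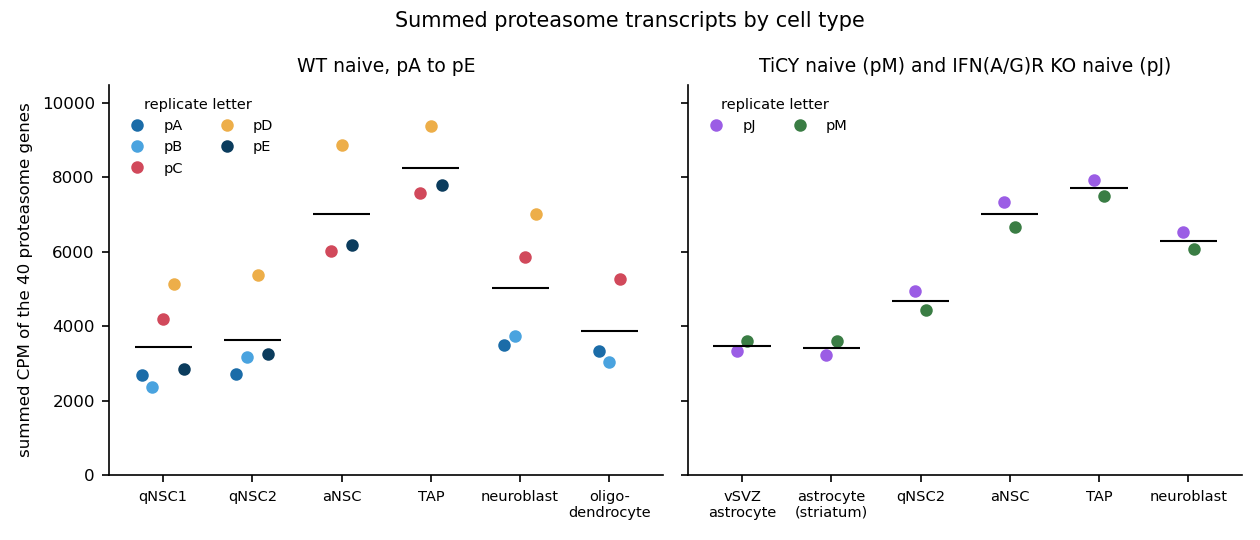
Summed CPM of the 40 proteasome genes in each sum of type and letter, with the type mean. WT aNSC and TAP sums lie at 6023 to 9389 CPM, above all quiescent sums (2372 to 5369 CPM) on total counts and among sums of at least 3 cells; with TMM factors these ranges overlapped.

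The first comparison asked which subunits differ between cycling (aNSC and TAP, 6 sums) and quiescent stem cells (qNSC1 and qNSC2, 9 sums). Subunit RNA was on the whole higher in cycling cells: 37 of the 39 members tested had a log2 fold change above 0, with a median of 1.12, against a median of -0.22 over 14915 genes. By edgeR's quasi-likelihood test with Benjamini-Hochberg adjustment over all genes, 9 members passed an adjusted p of 0.05, all of them higher in cycling cells, and 21 had an unadjusted p under 0.05. Over all genes 17.4% were called in either direction and 7.12% were called higher. An all-gene count at the unadjusted level is given below only for TAP against aNSC. The other unadjusted counts are therefore not set against all genes. The type labels may rest on the same transcriptomes, so these p-values, and those between types below, describe the sums rather than test labels set independently. The fit also took sums of different types from the same letter as independent.

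Among the ATPases, which unfold the substrate, 4 of 6 rose (role median 1.42). Psmc4 lay at 121 CPM in the lowest, 179.7 in the median and 298 in the highest cycling sum, against 32.5, 55.7 and 99.0 CPM in the quiescent sums. The groups did not overlap. Psmc4 averaged 193 ± 64.9 CPM in cycling and 58.3 ± 19.8 CPM in quiescent cells, a log2 fold change of 1.66 (SE 0.35, edgeR adjusted p = 0.0035).

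Psmc6 lay at 72.7, 141 and 284 CPM (lowest, median, highest) in cycling sums, against 12.7, 47.4 and 88.4 CPM in quiescent sums. Of its 6 cycling sums 5 lay above every quiescent sum, the exception being aNSC of pC. Its log2 fold change was 1.64 (SE 0.42, edgeR adjusted p = 0.0114). Psmc1 lay at 78.4, 175 and 402 CPM in cycling sums, against 12.6, 67.6 and 167 CPM in quiescent sums, with a log2 fold change of 1.70 (SE 0.54, edgeR adjusted p = 0.0327). Its highest cycling sums, 400.3 and 402 CPM, were both of pD. Psmc5 lay at 112, 151.5 and 287 CPM in cycling sums, against 17.3, 76.3 and 148.5 CPM in quiescent sums, with a log2 fold change of 1.2 (SE 0.41, edgeR adjusted p = 0.0482). The ATPases that did not pass were Psmc2 (log2 fold change 0.69) and Psmc3 (0.51).

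In the alpha ring, the gate of the core, 2 of 7 tested genes rose (role median 0.96). Psma5 lay at 108, 178.5 and 206 CPM in cycling sums, against 20.6, 49.1 and 167 CPM in quiescent sums, with a log2 fold change of 1.52 (SE 0.43, edgeR adjusted p = 0.0193). The quiescent sum that overlapped most was qNSC1 of pD. Psma7 lay at 179.7, 381 and 973.5 CPM in cycling sums, against 61.2, 85.1 and 397 CPM in quiescent sums, with a log2 fold change of 1.59 (SE 0.55, edgeR adjusted p = 0.0496). The other alpha genes had log2 fold changes of 0.56 (Psma2) to 1.26 (Psma4).

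In the beta ring 1 of 8 genes rose although the role median, 1.38, was close to that of the ATPases. Psmb1, a beta subunit without a cutting site, lay at 189.8, 306 and 663 CPM in cycling sums, against 28.7, 109 and 434 CPM in quiescent sums, with a log2 fold change of 1.5 (SE 0.51, edgeR adjusted p = 0.0439). The site-bearing Psmb5, Psmb6 and Psmb7 had log2 fold changes of 1.26 (SE 0.87), 1.59 (SE 0.57) and 0.60 (SE 0.47), none of which passed. Psmb5 ranged from 111 to 660.3 CPM over cycling sums and from 0 to 556 CPM over quiescent sums. Psmb11 had a log2 fold change of -1.22 (SE 0.63, edgeR adjusted p = 0.185) at 4.89 ± 3.34 CPM in cycling and 11.3 ± 4.29 CPM in quiescent cells.

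Of the 11 other 19S subunits 1 rose (role median 1.12). Psmd13, a lid subunit, lay at 46.5, 124.5 and 179 CPM in cycling sums, against 4.88, 44.8 and 82.6 CPM in quiescent sums, with a log2 fold change of 1.52 (SE 0.53, edgeR adjusted p = 0.0494). Of its cycling sums 5 of 6 lay above every quiescent sum. The rest ranged in log2 fold change from 0.35 (Psmd2, a scaffold of the base) to 1.51 (Psmd6, a lid subunit). The ubiquitin receptor Psmd4 was at 1.14 (SE 0.43) and the deubiquitinase Psmd14 at 0.74 (SE 0.61). None of the 3 chaperones passed (median 0.51).

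Of the 4 activators 1 rose. Psme3, the nuclear cap associated with proliferating cells, lay at 28.0, 45.1 and 107 CPM in cycling sums, against 5.87, 16.1 and 23.6 CPM in quiescent sums. The groups did not overlap, but on total counts they did (lowest cycling sum 24.0 CPM, highest quiescent sum 28.3 CPM). It averaged 55.6 ± 32.9 CPM in cycling and 15.6 ± 5.82 CPM in quiescent cells, with a log2 fold change of 1.84 (SE 0.51, edgeR adjusted p = 0.0167), the largest among the members called. It depended on pE: without that letter its log2 fold change was 1.19 (edgeR adjusted p = 0.228), and it was also not called without pB (1.75) or without pC (2.03). Psme1 and Psme2, the interferon-inducible cap, had log2 fold changes of 1.04 (SE 0.55) and 0.32 (SE 0.62), and Psme4 of -0.26 (SE 0.68).

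**Figure D2:**
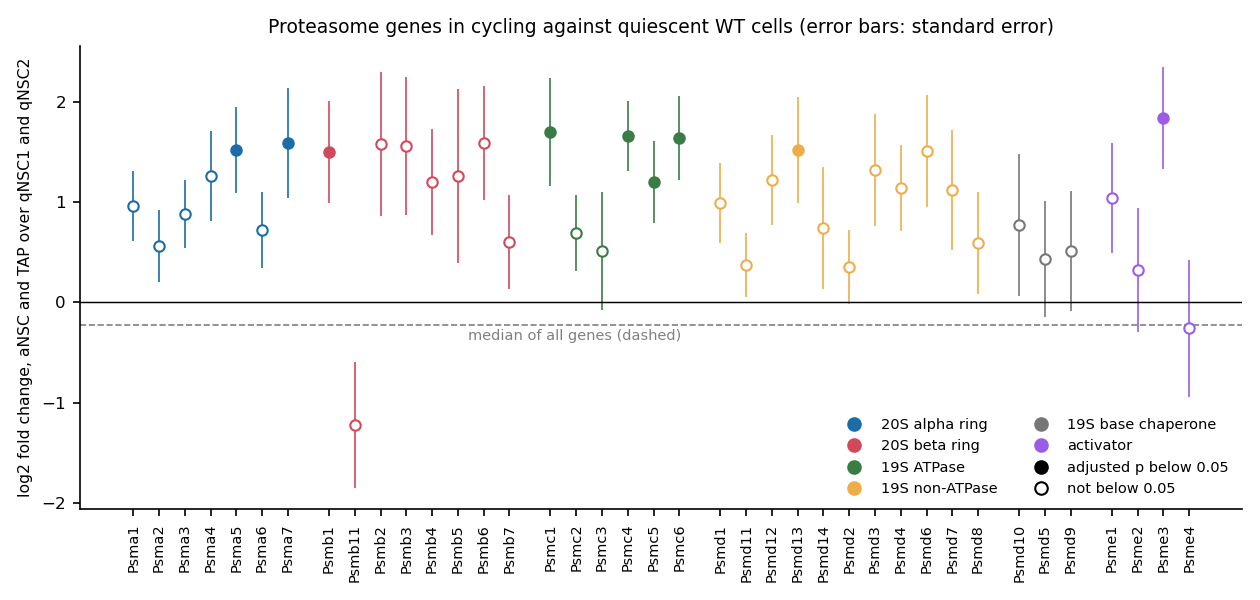
Log2 fold change of each tested proteasome gene, cycling (aNSC and TAP) over quiescent (qNSC1 and qNSC2) WT cells, with its standard error as the bar; filled points have an edgeR adjusted p below 0.05, and the dashed line is the median of all genes (-0.22). All but Psmb11 and Psme4 lie above 0.

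**Figure D3:**
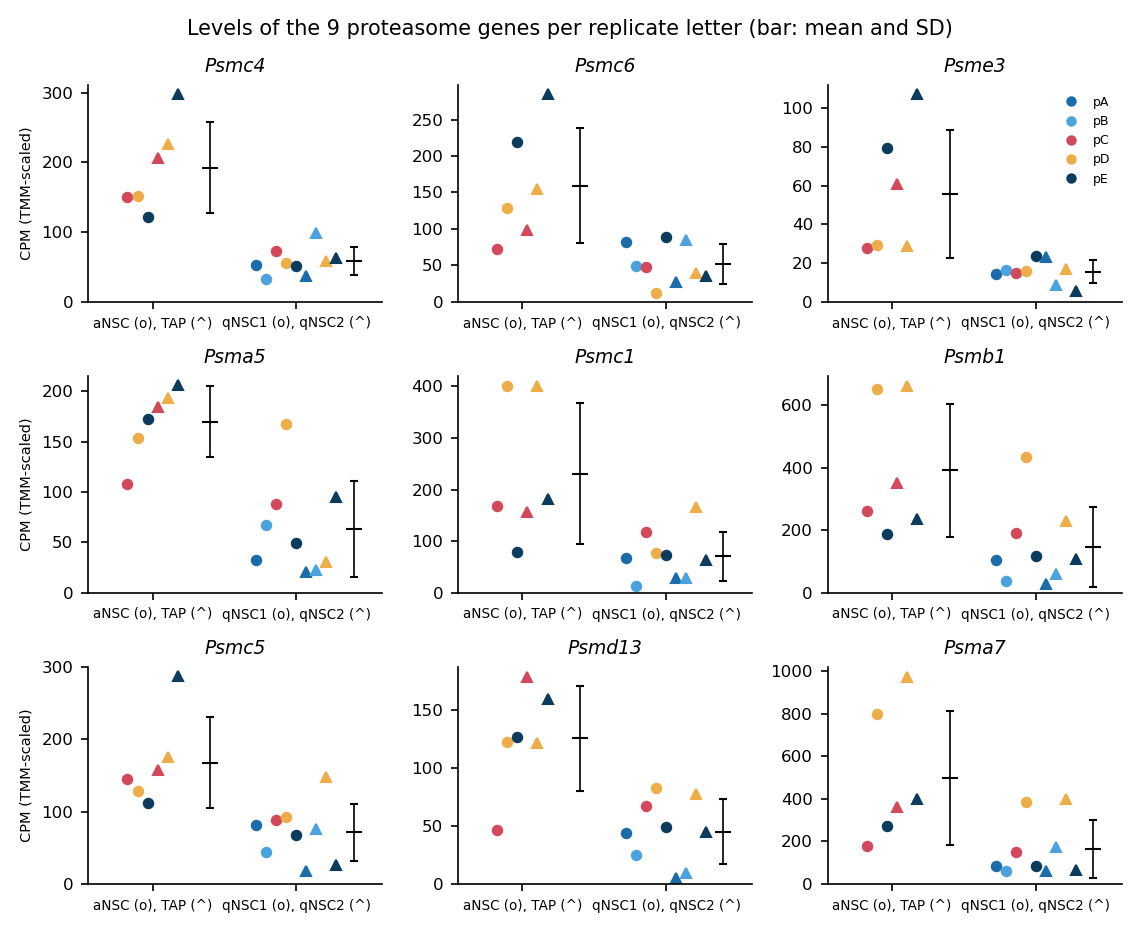
CPM in each sum of the 9 genes called in cycling against quiescent WT cells, by type and letter. On this TMM scale every aNSC and TAP point lies above every quiescent point for Psmc4 and Psme3; on total counts this held for Psmc4 and not for Psme3.

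Within letters, all 9 called genes were higher in cycling than in quiescent cells in pC, in pD and in pE. Of the 39 tested members, 29 were higher in pC (median log2 ratio 0.57, with 1 CPM added), 36 in pD (0.78), 36 in pE (0.98) and 27 in all of them. The share of all genes higher within letters is not given. With the letter as a block, 14 members were called (median 0.83), where 18.3% of all genes were. The count rested on several letters: it was 3 without pA, 3 without pB, 2 without pC and 3 without pE, where 10.7%, 9.94%, 6.69% and 6.04% of all genes were called in that order, and 13 without pD, where 18.9% were. Psmc4 kept its call whichever letter was left out and Psmc6 lost it without pE (1.21). Psma5 lost it without pA, pB or pC (1.36 to 1.72), Psmb1 (1.28 to 1.79), Psmc5 (0.97 to 1.37), Psmd13 (1.27 to 1.78) and Psma7 (1.43 to 2.0) without pA, pB, pC or pE, and Psmc1 (1.44 to 2.14) whichever of the 5 letters was left out. Within the letters pC and pD alone 0 members were called by edgeR (median 0.56), where 78 of 14896 genes (0.524%) were, and within pA, pB and pE 9 were called, where 13.7% of all genes were and the cycling sums were those of pE, of 3 cells each.

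Between neighbouring stages edgeR called no member. For qNSC2 against qNSC1, 0 of 39 members were called, where 0.0805% of all genes were. There 1 member had an unadjusted p under 0.05, DESeq2 called 0, and the median log2 fold change was -0.15, against -0.11 over all genes. The chaperone Psmd9 was at 12.5 ± 11.6 CPM in qNSC2 and 46.6 ± 30.6 CPM in qNSC1 (log2 fold change -1.88, SE 0.81). Psme1 was at 36.2 ± 23.5 CPM in qNSC2 and 13.4 ± 3.70 CPM in qNSC1 (1.44, SE 0.71), with overlapping ranges for both genes. The lid subunit Psmd6 and the chaperone Psmd5 were at -1.35 (SE 0.75) and -1.10 (SE 0.76).

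For aNSC against qNSC2, the exit from quiescence, 36 of 39 members had log2 fold changes above 0 with a median of 1.01. The all-gene median is not given for this contrast or for TAP against aNSC. Member medians there are therefore not set against all genes. edgeR called 0 members and 0.194% of all genes; 7 members had an unadjusted p under 0.05 and DESeq2 called 0. Psmd6 was at 93.4 to 131 CPM in aNSC and 2.16 to 89.8 CPM in qNSC2 (log2 fold change 2.07, SE 0.83, edgeR adjusted p = 0.246). Psma5 was at 108 to 173 CPM in aNSC and 20.6 to 95.4 CPM in qNSC2 (1.77, SE 0.63, edgeR adjusted p = 0.20). Ranges did not overlap for these genes, although those of Psmd6 did on total counts (lowest aNSC 84.2 CPM, highest qNSC2 99.9 CPM). Psmb2 (2.17, SE 1.06) and Psmb1 (1.78, SE 0.74) had overlapping ranges, those of Psmb1 not on total counts.

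For TAP against aNSC, 33 of 39 members were above 0 with a median of 0.39, edgeR called 0 members and 0% of all genes, no member had an unadjusted p under 0.05 (count 0, against 937 of all genes), and DESeq2 called 0. Psmc4 was at 207, 227 and 298 CPM in TAP, against 150.4, 152.5 and 121 CPM in aNSC. These ranges did not overlap (log2 fold change 0.79, SE 0.56, edgeR adjusted p = 1.0). Psme4 (0.84, SE 1.05), Psme1 (-0.83, SE 0.86) and Psmb7 (0.71, SE 0.73) overlapped between the types.

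For neuroblasts against TAP, 33 of 39 members were below 0 with a median of -0.82, against 0.07 over all genes. edgeR called 0 members and 0.0939% of all genes, 6 members had an unadjusted p under 0.05, and DESeq2 called 1, Psmc4. Psmc4 was at 32.1, 77.0, 135 and 74.9 CPM in neuroblasts, against 207, 227 and 298 CPM in TAP (log2 fold change -1.61, SE 0.52, edgeR adjusted p = 0.327). Psme3 was at 13.5 to 22.03 CPM in neuroblasts and 28.6 to 107 CPM in TAP (-1.88, SE 0.74). Psmd4 was at 92.0 ± 26.6 CPM in neuroblasts and 304 ± 83.7 CPM in TAP (-1.73, SE 0.64). Psmd1, a scaffold of the base, was at 131 ± 27.4 CPM in neuroblasts and 403 ± 257 CPM in TAP (-1.62, SE 0.58). In each of these genes the ranges did not overlap, but on total counts those of Psme3 did (highest neuroblast 24.2 CPM, lowest TAP 24.0 CPM).

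Neuroblasts against all quiescent cells gave a median of 0.44, against -0.07 over all genes. edgeR called 0 of 39 members where 15.3% of all genes were called, 3 members had an unadjusted p under 0.05 and DESeq2 called 3 (Psma1, Psma5 and Psmc6). Psmc6 was at 129, 164, 109.6 and 119 CPM in neuroblasts, all above the highest quiescent sum of 88.4 CPM, and had the log2 fold change with the lowest p (1.36, SE 0.46, edgeR adjusted p = 0.0505). With the letter as a block edgeR called 7 members, namely Psma1, Psma5, Psma7, Psmb1, Psmb6, Psmc6 and Psmd13, where 21.5% of all genes were called. Without pE it called 2, Psma5 and Psmd6, where 13% of all genes were called.

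The summed level of oligodendrocytes, 3042 to 5266 CPM, overlapped that of qNSC1, 2372 to 5141 CPM. In oligodendrocytes against qNSC1, 30 of 39 members were above 0 with a median of 0.24, against -0.24 over all genes. edgeR called 0 members where 11% of all genes were called, 1 member had an unadjusted p under 0.05, and DESeq2 called 1, Psmc4. The 6 ATPases were all above 0 (median 0.94). Psmc4 was at 155, 94.0 and 130.5 CPM in oligodendrocytes, against 32.5 to 73.5 CPM in qNSC1 (log2 fold change 1.25, SE 0.48, edgeR adjusted p = 0.108). The groups did not overlap. Psme1 was at 7.25, 2.43 and 3.50 CPM in oligodendrocytes, below the 9.56 to 18.7 CPM of qNSC1 (-1.61, SE 0.82, edgeR adjusted p = 0.265). With the letter as a block 2 members were called, Psmb6 at 1.11 and Psmc4 at 1.34, where 14.7% of all genes were.

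The sorts of pA, pB and pC, named by gate rather than by type, gave groups fixed by antibody gate. The summed level was 4377 ± 1387 CPM in the NB sort, 3846 ± 1236 in the OLIGO sort, 4369 ± 1778 in the ASTRO sort and 3316 ± 874 in the NSC sort (n = 3 each). For the NB sort against the NSC sort edgeR called 0 of 39 members and 11.8% of all genes; 3 members had an unadjusted p under 0.05 and DESeq2 called 1, Psmc6. Psmc6 was at 144.6, 179 and 113 CPM in the NB sort, against 60.5, 74.2 and 53.5 CPM in the NSC sort. The groups did not overlap (log2 fold change 1.21, SE 0.41, edgeR adjusted p = 0.0737), and with the letter as a block the edgeR adjusted p was 0.0154, where 19.2% of all genes were called. Psma1 (1.24, SE 0.48) and Psme1 (1.63, SE 0.71) did not overlap between the sorts, and Psmb6 (0.97, SE 0.51) did, though not on total counts.

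For the OLIGO sort against the NSC sort edgeR called 0 of 39 members and 6.1% of all genes; 0 members had an unadjusted p under 0.05 and DESeq2 called 0. Psmc4 was at 161, 89.2 and 133 CPM in the OLIGO sort, against 66.5, 56.2 and 51.3 CPM in the NSC sort (log2 fold change 1.14, SE 0.67). Psmd3, a lid subunit, was at 1.47 (SE 0.70), Psme1 at -1.41 (SE 0.71) and Psmc2 at 1.08 (SE 0.59), with overlapping ranges, those of Psme1 not on total counts. The NSC sort of pB carried oligodendrocyte markers at 41350 CPM, that of pA at 9865 CPM and that of pC at 187 CPM. Without pB both sort comparisons also gave 0 calls, and the part of these markers in the differences was not tested.

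Naive cells of pM (TiCY) and pJ (KO) held the same stages from aNSC to neuroblasts, with median cell totals of 110416 to 189512.5 counts per sum. The summed level was 7009 CPM in aNSC (6675 in pM and 7343 in pJ), 7726 in TAP (7508 and 7943) and 6296 in neuroblasts (6064 and 6529). It was 4691 CPM in qNSC2 (4426 and 4956), 3456 in vSVZ astrocytes (3591 and 3322) and 3416 in striatal astrocytes (3598 and 3235). Cycling and quiescent sums did not overlap, nor did they with TMM factors (6358 to 7177 CPM in cycling and 4562 and 5150 CPM in qNSC2). The letters pM and pJ served as the replicates of each type, so the spread between replicates includes the difference in genotype. Some sums held few cells: 7 in aNSC of pJ, 8 and 9 in TAP of pM and pJ, and 8 in neuroblasts of pJ. For cycling (4 sums) against qNSC2 (2 sums), 31 of 38 members were above 0 with a median of 0.62, against -0.50 over all genes. edgeR called 0 members and 3.02% of all genes, 1 member had an unadjusted p under 0.05, and DESeq2 called 1, Psmc4.

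Psmc4 was at 277 and 144.6 CPM in aNSC and 336 and 295 CPM in TAP, against 108 and 48.4 CPM in qNSC2. The groups did not overlap (log2 fold change 1.72, SE 0.60, edgeR adjusted p = 0.139). The other 8 genes called in WT cycling cells had log2 fold changes of 0.16 (Psma5, SE 0.53) to 1.02 (Psme3, SE 1.32), none of them called. Psmc3 was at 1.12 (SE 0.55) and Psmd9 at -1.46 (SE 1.13), without overlap, and Psmd10 at 1.33 (SE 0.99) with overlap.

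In the other naive contrasts edgeR and DESeq2 also called 0 of the members, and 0 had an unadjusted p under 0.05 by edgeR. For neuroblasts against qNSC2, 9.99% of all genes were called and the member median was 0.20, against -0.86 over all genes. The proteasome members named by size were Psmd5 (-1.55, SE 1.71), Psmd4 (-1.34, SE 0.72), Psma6 (0.98, SE 0.82) and Psme1 (0.93, SE 0.91). For qNSC2 against vSVZ astrocytes, 0.0125% of all genes were called and the member median was 0.16. Psme1 was at 39.3 and 27.9 CPM in qNSC2, against 11.4 and 13.2 CPM in vSVZ astrocytes, and Psme2 at 79.2 and 102 CPM, against 29.8 and 61.5 CPM (log2 fold changes 1.45, SE 0.92, and 0.99, SE 0.69). For striatal against vSVZ astrocytes, 0% of all genes were called and the member median was -0.05, with Psmd10 (0.97, SE 1.08) and Psmd9 (0.83, SE 1.35) the largest.

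Genes that build, feed or regulate the proteasome were followed as a list of 34. In cycling against quiescent WT cells 3 of 34 rose and 2 fell (median 0.53), where 17.4% of all genes were called and 7.12% were higher, so the list's share lay near that of all genes. The riser Rps27a, a ubiquitin fusion gene, was at 755 ± 167 CPM in cycling and 119 ± 93.0 CPM in quiescent cells (log2 fold change 2.66, SE 0.52, edgeR adjusted p = 0.00185); it has near-identical copies, so its count is uncertain. Vcp, the segregase that hands over substrates, was at 1.03 (SE 0.33, edgeR adjusted p = 0.0368), and the core chaperone Psmg4 at 2.17 (SE 0.72, edgeR adjusted p = 0.0419). Psmg4 had overlapping ranges. Its cycling sums were at 175 and 211 CPM in pD and at 12.6 to 40.8 CPM in pC and pE. Its quiescent sums of pD were at 23.9 and 76.6 CPM. Of the genes that fell, Nfe2l2, the Nrf factor of the antioxidant response, was at 26.3 ± 20.8 CPM in cycling and 103 ± 87.0 CPM in quiescent cells (-2.05, SE 0.64, edgeR adjusted p = 0.0308). Its ranges overlapped. Quiescent sums were at 17.8 to 34.8 CPM in pC and pD and at 77.0 to 296 CPM in pA, pB and pE. Within pD cycling sums were at 15.1 and 25.2 CPM, against 17.8 and 34.8 CPM. Within pC they were at 31.2 and 2.71 CPM, against 32.5 CPM. Within pE they were at 63.8 and 19.7 CPM, against 85.9 and 161.5 CPM.

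In neuroblasts against quiescent cells, where 15.3% of all genes were called, 2 of 34 fell: Nfe2l2 (-3.80, SE 0.84, edgeR adjusted p = 0.0038) and Nfe2l1 (-1.63, SE 0.51, edgeR adjusted p = 0.0338), the factor that induces subunit genes when the proteasome is inhibited. In oligodendrocytes against qNSC1, where 11% of all genes were called, 1 of 34 rose, the shuttle Ubqln1 (1.92, SE 0.59, edgeR adjusted p = 0.0391). Between the NB and NSC sorts, where 11.8% of all genes were called, Bag6 rose (1.87, SE 0.51, edgeR adjusted p = 0.0318) and Nfe2l2 fell (-3.17, SE 0.91, edgeR adjusted p = 0.0404). In naive pM and pJ neuroblasts against qNSC2, where 9.99% of all genes were called, Nfe2l2 and Psmg1 were called and had 0 counts in both neuroblast sums, against 154 ± 58.3 and 49.3 ± 52.1 CPM in qNSC2. The remaining contrasts called 0 of the 34.

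Of the immunoproteasome genes, which replace the cutting subunits under interferon, Psmb8 and Psmb10 passed the WT filter. Psmb8 was at 8.16 ± 11.3 CPM in cycling and 0.908 ± 1.61 CPM in quiescent cells with overlapping ranges (log2 fold change 3.71, SE 1.24, edgeR adjusted p = 0.042). Its highest cycling sum was TAP of pC at 30.3 CPM. In pC and pD each cycling sum lay above the quiescent sums of its letter. In pE both cycling sums were at 0 CPM, against 0.454 and 0.309 CPM in quiescent sums. Psmb10 was at 31.2 CPM in cycling and 31.5 CPM in quiescent cells on average (0.57, SE 1.02).

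The ischemic arms had 1 letter each, so their ratios have no replicate check and no test. Ratios are log2 of CPM with 5 CPM added, of 10891 genes with a mean of 10 CPM or more, among which were 38 members; intervals are exact 95% Poisson intervals and cover counting error only. The arms named by sort hold the cells of the types in the same arm, and TiCY arms share the naive pM cells as their control. The summed level was higher at 2 d than in naive cells in each type and sort. In KO cells it was 5123 CPM at 2 d against 3322 CPM in naive vSVZ astrocytes, 4118 against 3235 in striatal astrocytes and 6359 against 4956 in qNSC2. It was 8429 at 2 d against 7343 CPM in naive KO aNSC, 9967 against 7943 in TAP and 7424 against 6529 in neuroblasts.

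Among KO types, 12 of 38 members lay past 2-fold in vSVZ astrocytes at 2 d against naive, all 12 higher (median log2 ratio 0.44, against -0.04 over all genes), where 32.5% of all genes lay past 2-fold either way and 14.6% higher. In KO striatal astrocytes 11 lay past 2-fold, 10 of them higher (median 0.32, against 0.12), where 27.8% of genes did either way and 18.1% higher. In KO qNSC2 9 did, 8 of them higher (median 0.36, against 0.00), where 34.4% of genes did either way and 17% higher. The members' share either way lay close to that of all genes in both astrocyte types and below it in qNSC2, and the ratios past 2-fold were mostly on the higher side.

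Of single members, the beta subunit Psmb4 was at 527 CPM (509 to 546.5) in KO vSVZ astrocytes at 2 d and 129.5 CPM (123 to 136) in naive ones, a log2 ratio of 1.98. Psma6 and Psmd13 were each at 1.57 there. Psme1 was at 47.3 CPM (41.8 to 53.3) at 2 d and 11.1 CPM (9.26 to 13.1) in naive KO vSVZ astrocytes, a log2 ratio of 1.70. It was at 22.6 against 5.94 CPM in striatal astrocytes (1.34) and at 77.7 against 26.8 CPM in qNSC2 (1.38). In all of these the counting intervals did not overlap.

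Psmd14 moved in opposite directions: it was at 85.6 CPM at 2 d against 14.6 CPM in naive KO striatal astrocytes (2.21), and at 26.6 against 153 CPM in KO qNSC2 (-2.32). The naive values rested on 64 and 751 counts. Psmd10, a chaperone also known as gankyrin, was at 5.99 CPM at 2 d against 34.7 CPM in naive KO striatal astrocytes (-1.85) and at 57.0 against 10.2 CPM in KO qNSC2 (2.03). In KO qNSC2 Psmc4 had the largest ratio (2.43; 273.5 CPM at 2 d, 46.5 CPM naive), and Psmd2 was at 1.40. Psmd13 (1.47) and Psmd12 (1.37) were high in KO striatal astrocytes.

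By sort, the GLAST-sorted vSVZ cells of TiCY mice had a summed level of 6687 CPM at 2 d and 4326 CPM in naive cells. There 6 members lay past 2-fold, all higher (median 0.66, against 0.00 over all genes), where 34.2% of genes did either way and 16.3% higher. In the TiCY striatal sort (4894 CPM at 2 d, 3598 CPM naive) 8 members did, all higher (median 0.31, against -0.05), where 37.9% of genes did either way and 18.6% higher. In the KO vSVZ sort (7137 CPM at 2 d, 4405 CPM naive) 12 did, 11 of them higher (median 0.73, against 0.05), where 28.7% of genes did either way and 14% higher. In the KO striatal sort (4775 CPM at 2 d, 3235 CPM naive) 13 did, 12 of them higher (median 0.60, against 0.26), where 32.5% of genes did either way and 24.2% higher. With TMM factors, which moved the median of all genes there to 0.07, the count in the KO striatal sort was 8.

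Psmd3 was higher at 2 d in each of these 7 comparisons. It was at 131 CPM (127 to 135) in TiCY vSVZ-sorted cells at 2 d and 41.9 CPM (39.6 to 44.3) in naive ones, a log2 ratio of 1.54. In TiCY striatal-sorted cells it was at 172 and 40.9 CPM (1.95), in KO vSVZ-sorted cells at 115 and 49.4 CPM (1.14), and in KO striatal-sorted cells at 134 and 52.3 CPM (1.28). Psmb4 had 553 and 198 CPM in the TiCY vSVZ sort (1.46) and 549 and 196 CPM in the KO vSVZ sort (1.47). Psmb6, the subunit with the caspase-like site, was at 1.18 in the TiCY vSVZ sort and 1.24 in the TiCY striatal sort, and Psmb3 at 1.15 and 1.17. In the TiCY striatal sort Psmd5 was at 1.22. In the KO vSVZ sort Psmc4 was at 1.67 and Psmd13 at 1.47, and Psmd14 at -1.38. In the KO striatal sort Psmd14 was at 2.12, Psmd12 and Psmd13 at 1.55 each and Psmb5 at 1.47.

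Depth and composition differed beside these ratios. Cells of the TiCY striatal sort had a median of 404706 counts at 2 d and 142356 in naive cells; their endothelial markers (4 of 4 detected at 2 d, 2 of 4 in naive cells) summed to 114 CPM at 2 d and 4.66 CPM in naive cells. Their astrocyte markers (7 of 7 detected in both) summed to 9590 CPM at 2 d and 34470 CPM in naive cells. Neuroblast markers (7 of 7 detected) summed to 4703 CPM at 2 d and 786 CPM in naive cells of the TiCY vSVZ sort, and to 2296 and 552 CPM in the KO vSVZ sort. Their part in the sort ratios was not tested. In KO vSVZ astrocytes the same neuroblast markers summed to 28.3 CPM at 2 d and 26.1 CPM in naive cells. The part of composition in the ratios of the types was not tested. Letter and arm cannot be told apart for the TiCY arms. The KO arms at 2 d and naive share the letter pJ, but only the ischemic ones were labelled as carrying TiCY. Ischemia and this difference in genotype cannot be told apart there.

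**Figure D4:**
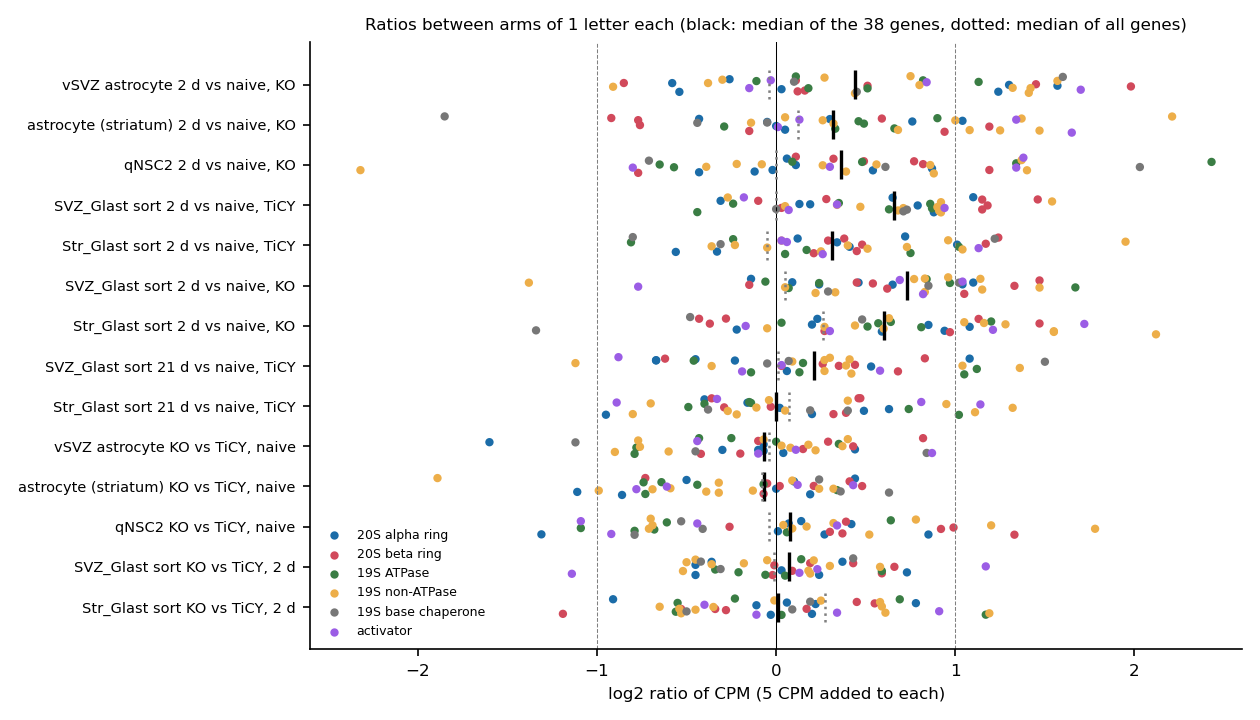
Log2 ratio of CPM (5 CPM added to each) of the 38 proteasome genes in each of the 14 comparisons between arms of 1 letter; black bars are the members' medians, dotted bars the medians of all genes and dashed lines 2-fold. Medians at 2 d against naive lie at 0.31 to 0.73, and those of KO against TiCY at -0.07 to 0.08.

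At 21 d the summed level and the members' median ratio lay nearer to naive than at 2 d in both TiCY sorts. Members past 2-fold numbered 8 at 2 d and 4 at 21 d in the striatal sort, but 6 and 7 in the vSVZ sort. At 2 d 37.9% (striatal) and 34.2% (vSVZ) of all genes lay past it. The cells at 2 d and 21 d were of different letters (pI and pH), so time and letter cannot be told apart. The TiCY vSVZ sort summed to 5338 CPM at 21 d and 4326 CPM naive, and 7 of 38 members lay past 2-fold, 6 of them higher (median 0.21, against 0.01), where 15.1% of genes did either way and 7.41% higher. In the TiCY striatal sort (4055 CPM at 21 d, 3598 CPM naive) 4 did, all higher (median 0.00, against 0.07), where 18.2% of genes did either way and 10.5% higher. Psmd3 was again high, at 116 CPM at 21 d in the vSVZ sort (1.36) and 110.0 CPM in the striatal sort (1.32). Psmc3, an ATPase, was at 1.12 in the vSVZ sort and 1.02 in the striatal sort. Psmd10 was at 1.5 and Psmd14 at -1.12 in the vSVZ sort, and Psme2 was at 1.14 and Psmd2 at 1.11 in the striatal sort.

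KO cells were set against TiCY cells for differences in subunit RNA. All KO cells were of letter pJ, and TiCY cells were of pM (naive) or pI (2 d). Genotype and letter therefore cannot be told apart in these ratios. Naive KO vSVZ astrocytes had 2 members past 2-fold (median -0.07, against -0.04), both lower, where 13.7% of genes lay past it. They were Psma6 and, named after its value was seen, Psmd10 at 7.10 CPM in KO and 21.3 CPM in TiCY cells. Naive KO striatal astrocytes had 2, both lower (median -0.07, against -0.08), where 20.3% of genes did, and naive KO qNSC2 had 6, 3 in each direction (median 0.08, against -0.04), where 29.4% did. Psma6 was lower in naive KO cells of these 3 types: 50.4 CPM in KO against 163 CPM in TiCY vSVZ astrocytes (-1.60), 62.5 against 141 CPM in striatal astrocytes (-1.11) and 69.7 against 179.6 CPM in qNSC2 (-1.31). Naive neuroblasts went the other way, with 318 CPM in KO and 189.9 CPM in TiCY cells on the TMM scale. Psmd14 was at -1.89 in striatal astrocytes and 1.78 in qNSC2. Psmb7 (1.33) and Psmd6 (1.2) were higher in KO qNSC2. Psmd13 (-0.90), Psme2 (0.87) and Psmb3 (0.82) in vSVZ astrocytes, and Psmd4 (-0.99) and Psma1 (-0.86) in striatal astrocytes, stayed within 2-fold.

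At 2 d the KO vSVZ sort had 2 members past 2-fold against the TiCY vSVZ sort, 1 in each direction (median 0.07, against -0.01), where 17% of genes did. These were Psme2, at 139 CPM in KO and 58.9 CPM in TiCY cells (1.17), and Psme4, at 53.0 CPM in KO and 123 CPM in TiCY cells (-1.14). Psma5 (0.73) and Psmb2 (0.66) stayed within 2-fold. The KO striatal sort had 3 (median 0.01, against 0.27), where 35.4% of genes did. They were Psmb6 (-1.19), Psmd12 (1.19) and Psmc6 (1.17), followed by Psma7 (-0.91). With TMM factors the member median was -0.30 there and that of all genes -0.01. Psme1, whose window holds the interferon-stimulated core, was at 58.1 CPM in KO and 48.9 CPM in TiCY vSVZ-sorted cells at 2 d (0.23), and at 20.3 and 14.96 CPM in the striatal sorts (0.34).

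The immunoproteasome genes were low or uneven in the same arms. Psmb8 was at 9.62 CPM in KO and 17.8 CPM in TiCY vSVZ-sorted cells at 2 d, against 3.48 and 3.64 CPM in naive cells of the same genotypes. In the striatal sorts it was at 3.91 CPM in KO and 12.3 CPM in TiCY cells at 2 d, against 3.65 and 2.30 CPM in naive cells. Psmb9 stayed at or below 0.868 CPM in these sorts at 2 d. Psmb10 was at 101 CPM in KO and 60.4 CPM in TiCY vSVZ-sorted cells at 2 d.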

How the data were processed

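Per the submitters' processing notes, the authors mapped reads with STAR and counted them with featureCounts on GRCm38 (mm10); versions, annotation, strand, use of molecular identifiers and cell filters: not given in the sources used here. Whole-number counts were deposited with cells in rows and genes in columns; a second table of ischemia cells was not used here. Symbols and exon lengths came from GENCODE M21. Members and lists were chosen with earlier results of these data known.

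Each labelled cell is 1 sample, so cells of the same letter and type, or sort, were added together where there were at least 3. Cells were sorted singly and no doublet caller was run; 603 cells of the table matched no labelled cell and were not used. Sums were fitted with edgeR 4.0.16 (R 4.3.3; TMM factors, filterByExpr, glmQLFit and glmQLFTest, group means only, Benjamini-Hochberg over all genes tested): 22 WT sums (14915 genes), 12 sort sums (14348 genes) and 12 naive pM and pJ sums (16009 genes). The script was tested on simulated counts. CPM of single genes in these fits used TMM factors; summed levels, levels per length, markers and arms used total counts. Both scalings of the summed levels and of the ranges were compared after the data were seen. Letters, whose mice were pooled or single, are the replicates of a type or sort. The p-values measure the spread between sums within types or sorts. The main fits took sums of the same letter as independent, and only the alternative with a letter block used their pairing. Letters pA to pF were not compared with pH to pM, since their counting may differ.

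Letters pair the sums: deviations from group means correlated above 0.1 in all 38 same-letter pairs of the WT fit and all 18 of the sort fit, and in 6 of 30 of the naive fit. Genes named were those called or, with none called, the 4 largest log2 fold changes at 20 CPM or more, and the highest and lowest per length in each role. Alternatives were a letter block, RLE factors, no filter, sums of 1 cell or more, DESeq2 1.42.0, each letter left out and each library set; for arms, 1 CPM added, TMM factors and means of per-cell CPM. Of the list of 34, 1 gene is counted but not reported here.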

Additional observations from a re-analysis of the deposited data

Results flagged for a closer look

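Of 30 groups of 4 to 10 sums examined for the members called in cycling cells, 3 held a sum that stood far from the others; chance gives about 1 in 20. Psma7 was at 386.5 CPM in qNSC1 of pD, where the other letters lay at 62.8 to 148 CPM. Psma5 was at 95.4 CPM in qNSC2 of pE, against 20.6 to 31.0 CPM in the other letters. Psme3 was at 23.6 CPM in qNSC1 of pE, against 14.2 to 16.6 CPM in the other letters, and still below every cycling sum.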

How the results depend on the processing

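The count of members called in WT cycling against quiescent cells, 9 as reported, was 14 with the replicate block, 5 with no filter on low counts, 4 with sums of at least 1 cell, 18 with DESeq2 (17 higher, Psmb11 lower), 0 within pC and pD alone, and 2 to 13 when a letter was left out. The share of all genes called is not given, here or above, for DESeq2, RLE factors, no filter or sums of at least 1 cell. Counts under those settings are therefore not set against all genes. The 9 genes kept a log2 fold change above 0 in 12 of 12 alternatives. Psmc4 (1.33 to 1.87) and Psmc6 (1.21 to 2.14) were called in 10 of them each; adjusted p ranged from 3.005e-06 to 0.311 for Psmc4. Where 0 members were reported, neuroblast against TAP gave 1 with DESeq2; neuroblast against quiescent 7 with the block, 2 with RLE factors, 3 with DESeq2 and 0 to 2 with a letter left out; oligodendrocyte against qNSC1 2 with the block and 1 with DESeq2; the NB against the NSC sort 1 with the block and 1 with DESeq2; and naive cycling against qNSC2 1 with DESeq2. The block changed no other count. In the arms, the KO striatal sort at 2 d gave 8 members past 2-fold with TMM factors in place of 13. Naive KO against TiCY gave 1 in place of 2 in vSVZ astrocytes with per-cell means, and 4 in place of 2 in striatal astrocytes with 1 CPM added or per-cell means. The cause of these shifts was not tested. The mean log2 summed level of WT cycling minus quiescent cells was 1.15 with total counts and 1.12 with TMM factors, an alternative chosen after seeing the data. Of the counts and this difference under alternatives 134 stayed close to the reported value (counts within 1.5 times) and 23 moved; of the named genes 451 results kept their call, 15 gained and 50 lost it, and none reversed. No letter could be left out of the naive fit, and sums of 1 cell changed neither the sort nor the naive fit. Arms of 1 letter allow no test, and low counts limit Psma8, Psmb11 and the immunoproteasome genes.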

Other observations

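Groups outside the comparisons also carried proteasome RNA. Neuroblasts and neurons of the olfactory bulb (pF, 55 cells) had a summed level of 8010 CPM for the 40 genes. Striatal astrocytes of WT mice (pE, 12 cells) had 2804 CPM. In the TCF-Lef reporter mice (pL), cortical astrocytes had 3277 CPM and striatal astrocytes 3631 CPM. TiCY oligodendrocytes (pM, 13 cells) had 4940 CPM. In KO mice at 2 d, striatal cells labelled neurogenic had 6554 CPM (27 cells) and those labelled reactive had 6169 CPM (9 cells), each from 1 letter.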
